A study of Mus musculus with 36 samples.

Results

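Dazl, Ddx4, Mael, Sycp1, Sycp3, Piwil2, Tdrd12, Slc25a31, Tex19.1 and Hormad1 are germline and meiosis genes whose promoters are known to be held silent by DNA methylation outside the germ line. They were chosen by name and form 10 of the 29267 genes listed in 7 of the RNA-seq libraries and of the 50600 genes listed in the other 4. All 10 were found by symbol in each of the 11 libraries. DNA methylation itself was not measured in these libraries, so the description of the genes as methylation-sensitive was not tested here.

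The study converted mouse epiblast stem cells (EpiSCs), which are primed pluripotent cells, toward the naive state with BMP4 and followed germ cell-like cells that arose on the way. EpiSCs were kept in N2B27 medium with Activin A, bFGF and the tankyrase inhibitor XAV939. In stage 1 the cells spent 3 days in iCD1 medium, which holds vitamin C, bFGF, LiCl, LIF and CHIR99021, together with BMP4, the EZH2 inhibitor EPZ6438 and a DOT1L inhibitor, EPZ5676 by the labels. Stage 2 used the MEK and GSK3 inhibitors PD0325901 and CHIR99021 (2i) with vitamin C by the labels, to which the study's methods add LIF. The first experiment sorted Day 3 cells of stage 1 by the receptor c-Kit into c-Kit+ and c-Kit- cells, with 2 libraries each. The second compared 2 libraries of Day 6 BV+SC+ cells with 3 libraries of EpiSCs. BV+SC+ cells express the Blimp1-mVenus and Stella-ECFP reporters and were purified by flow sorting from an EpiSC line made from reporter embryonic stem cells, and the labels do not say whether the EpiSC libraries came from that line. The labels describe BV+SC+ replicate 1 as 2iJi and replicate 2 as GK15, so medium and replicate cannot be told apart. The third experiment holds 1 library of Day 3 cells with the DOT1L inhibitor SGC0946 and 1 without it, named so in their titles, while the protocol text they share with the EpiSC and BV+SC+ libraries names EPZ5676.

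The libraries held 1726038 to 1841442 expected counts in the c-Kit experiment, 2444211 to 3070115 in EpiSCs, 14778809 and 18099059 in BV+SC+ cells and 4577685 without and 4776143 with SGC0946. A gene was taken to be at the floor of a group when no library of that group held more than 3 counts. That floor corresponds to 1.63 to 1.74 CPM (counts scaled by library size) in the c-Kit libraries, 0.977 to 1.23 CPM in EpiSCs, 0.166 and 0.203 CPM in BV+SC+ cells and 0.628 and 0.655 CPM in the SGC0946 pair. The sorted libraries carried their labels in their own markers. Kit stood at 3.24 and 4.81 TPM (a level scaled by transcript length and depth) in c-Kit- cells and at 96.0 and 99.6 TPM in c-Kit+ cells. Dppa3, which encodes Stella, was at 0 in the 3 EpiSC libraries and at 1162 and 1202 TPM in BV+SC+ cells. All 9 early germ cell markers were called higher in BV+SC+ cells than in EpiSCs. Kit and Dppa3, like Prdm1 in BV+SC+ cells, were used by the sorts, through the antigen or the reporters, and are a check of the labels only. Dot1l, the target of the DOT1L inhibitors, was at 59.5 to 83.5 TPM in all 11 libraries.

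In the early mouse embryo, germ cells are set aside from the epiblast and then lose most of the DNA methylation of their genome as they move to the gonad. A group of genes for RNA control, the piRNA pathway and meiosis have promoters rich in CpG that are methylated in somatic cells, and loss of that methylation goes with their activation in the germ line. A Polycomb complex called PRC1.6, in which E2F6 and the MGA and MAX pair bind DNA, represses many of the same promoters. Of the genes described here, Dazl and Ddx4 encode an RNA-binding protein and a DEAD-box helicase of germ cells. Mael, Piwil2 and Tdrd12 act in the piRNA pathway, which silences transposons. Sycp1, Sycp3 and Hormad1 encode parts of the synaptonemal complex and the meiotic chromosome axis. Slc25a31 encodes a mitochondrial ADP/ATP carrier of male germ cells, and Tex19.1 a protein of mammalian germ cells and placenta that restrains retrotransposons.

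The 10 genes lie apart in the genome (GRCm38 coordinates of GENCODE M21, whole genes). On chromosome 3 lie Slc25a31 (chr3:40708855-40726096, plus strand), Hormad1 (chr3:95559677-95587671, plus) and Sycp1 (chr3:102818499-102936100, minus). The others are Mael (chr1:166201201-166238747, minus), Tdrd12 (chr7:35469098-35537745, minus), Sycp3 (chr10:88459569-88473236, plus), Tex19.1 (chr11:121146143-121148319, plus), Ddx4 (chr13:112598333-112652475, minus), Piwil2 (chr14:70372477-70429383, minus) and Dazl (chr17:50279395-50293636, minus).

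Promoters of 9 of the 10 genes were matched by symbol in the RefSeq table of GRCm38.p6, where Piwil2 has no entry. These promoters span 300 bases, from 250 before to 50 after the start of the gene in RefSeq. They held 11 to 38 CpG dinucleotides, with a median of 22, against a median of 7 over all 32851 promoters of the table. Ddx4 had the most, with 38 CpG, a GC share of 72.0% and an observed over expected CpG ratio of 0.978. Tdrd12 had the fewest, with 11 CpG and a ratio of 0.408, and 58.6% of all promoters hold fewer. The other 7 lay between 15 CpG in Sycp3 and 28 in Dazl. Letters like those bound by E2F6 (GCGGGA, read on both strands, so also TCCCGC) occurred in 7 of the 9 promoters, beside 20.0% of all promoters and 41.6% of the 13594 promoters with at least 11 CpG. The E-box letters CACGTG, which read the same on both strands and do not overlap the first motif in these promoters, occurred in 6 of the 9, beside 7.15% of all promoters and 10.97% of those with at least 11 CpG. Both were present in Ddx4, Mael, Sycp1, Sycp3, Slc25a31 and Hormad1, which is 6 of 9. Both motifs occur in 1.99% of all promoters and in 4.52% of those with at least 11 CpG. Tex19.1 held GCGGGA alone. In Dazl and Tdrd12 neither string of letters was in the window. Such matches describe the letters only and do not show that a factor was bound.

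**Figure D1:**
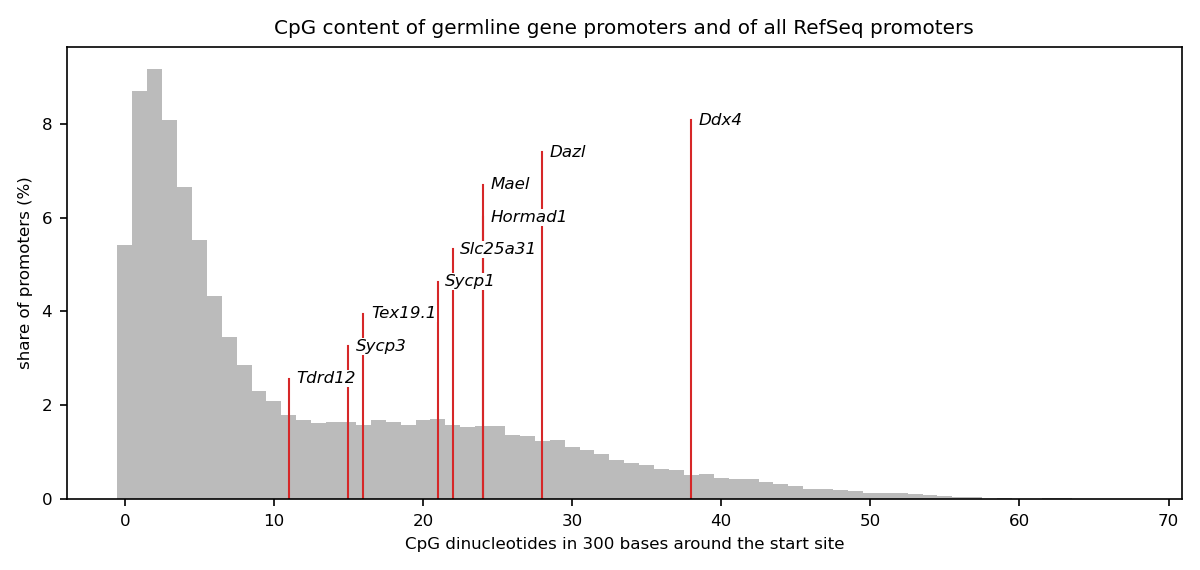
The number of CpG dinucleotides in the 300-base promoter (horizontal axis) against the share of all 32851 RefSeq promoters in percent (grey bars), with red lines at the 9 matched genes, whose height has no meaning and of which Mael and Hormad1 share 1. The genes sit between 11 CpG in Tdrd12 and 38 in Ddx4, all above the median of 7.

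The 250 bases before the start are shown, 5′ to 3′ on the strand of each gene, for Ddx4, Hormad1 and Sycp3, which hold both motifs, and for Dazl and Tdrd12, which hold neither yet stood among the 3 highest of the 10 genes in BV+SC+ cells. Capitals mark GCGGGA or TCCCGC and CACGTG. The stretches are chr13:112652311-112652560 (minus strand) for Ddx4, chr3:95559427-95559676 (plus) for Hormad1, chr10:88459337-88459586 (plus) for Sycp3, chr17:50293621-50293870 (minus) for Dazl and chr7:35537716-35537965 (minus) for Tdrd12, all in GRCm38.p6.
Ddx4: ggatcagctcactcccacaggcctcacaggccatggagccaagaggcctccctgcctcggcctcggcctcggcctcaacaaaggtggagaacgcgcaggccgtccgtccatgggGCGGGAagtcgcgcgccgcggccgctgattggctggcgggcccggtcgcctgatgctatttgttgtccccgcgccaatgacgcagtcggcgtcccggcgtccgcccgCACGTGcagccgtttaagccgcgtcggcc
Hormad1: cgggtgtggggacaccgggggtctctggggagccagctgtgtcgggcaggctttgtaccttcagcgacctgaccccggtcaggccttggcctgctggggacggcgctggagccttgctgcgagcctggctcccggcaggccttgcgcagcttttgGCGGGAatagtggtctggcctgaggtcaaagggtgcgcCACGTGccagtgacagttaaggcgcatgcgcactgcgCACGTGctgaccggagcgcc
Sycp3: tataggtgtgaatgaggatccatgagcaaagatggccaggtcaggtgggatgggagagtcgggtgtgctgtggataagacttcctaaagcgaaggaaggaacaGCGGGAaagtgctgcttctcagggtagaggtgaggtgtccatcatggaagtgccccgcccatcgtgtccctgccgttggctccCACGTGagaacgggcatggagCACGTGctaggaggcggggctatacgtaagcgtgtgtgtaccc
Dazl: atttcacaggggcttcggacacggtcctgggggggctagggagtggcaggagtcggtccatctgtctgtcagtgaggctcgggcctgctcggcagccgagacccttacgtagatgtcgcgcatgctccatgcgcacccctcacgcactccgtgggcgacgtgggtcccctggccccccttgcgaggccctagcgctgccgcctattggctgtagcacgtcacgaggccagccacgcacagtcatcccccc
Tdrd12: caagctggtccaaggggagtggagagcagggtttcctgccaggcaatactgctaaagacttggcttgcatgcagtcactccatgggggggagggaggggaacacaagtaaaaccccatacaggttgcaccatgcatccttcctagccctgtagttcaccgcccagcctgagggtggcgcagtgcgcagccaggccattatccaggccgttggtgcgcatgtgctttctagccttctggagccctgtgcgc
In Ddx4 the GCGGGA begins 136 bases and the CACGTG 29 bases before the RefSeq start. Hormad1 has CACGTG at 57 and at 20 bases and Sycp3 at 64 and at 43 bases before it, each with a GCGGGA farther upstream, at 95 and at 147 bases. RefSeq and GENCODE differ in the start of some of these genes. The GENCODE gene of Ddx4 reaches chr13:112652475, so both of its motifs lie inside that gene. The stretches of Sycp3, Dazl and Tdrd12 also overlap their GENCODE genes at the edge, while that of Hormad1 does not.

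Every one of the 10 genes had counts in both Day 6 BV+SC+ libraries, and in each gene both BV+SC+ libraries lay above all 3 EpiSC libraries in normalized CPM. The same held for 34.6% of the 19598 genes with any count in these libraries, and for 24.0% in the other direction. In EpiSCs 7 of the 10 were at the floor, and Dazl, Mael, Slc25a31 and Hormad1 had 0 counts in all 3 libraries. The BV+SC+ libraries were deeper than those of EpiSCs, and the effect of depth is given below for each gene that it limits. By edgeR's quasi-likelihood test, with p-values adjusted over all 11792 genes tested, 16.8% of genes were called higher in BV+SC+ cells and 17.2% lower (adjusted p under 0.05 and fold over 2). Of the 10 genes, 9 passed the filter on low counts, and those 9 were called higher. Each passed through the BV+SC+ libraries, where it was high, so that the filter and the call rest on the same counts. Slc25a31 was left out by the filter.

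Dazl, the RNA-binding protein of germ cells, gave 1573 and 2300 counts in the BV+SC+ libraries (65.2 and 79.4 TPM) and 0 counts in each EpiSC library. Its level was at least 95.5-fold higher in BV+SC+ cells when EpiSCs were set at 3 counts in the library where 3 counts weigh most (adjusted p = 1.62e-05). Ddx4, the helicase also known as Vasa, gave 210 and 264 counts (9.01 and 9.44 TPM) against 0, 2 and 0 counts in EpiSCs. The ratio of summed counts over library size was 61.0 for Ddx4, with an exact conditional 95% interval of 16.8 to 505 that covers counting error only (adjusted p = 0.000303). It was 39.1 without EpiSC replicate 1, and without EpiSC replicate 2, which held both counts, Ddx4 was at least 11.8-fold higher. Per length the 2 BV+SC+ libraries differed by 1.22 times for Dazl and 1.05 times for Ddx4, and neither gene was found above 2 counts in any EpiSC library.

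In the piRNA pathway, Tdrd12, a Tudor domain protein, had the highest level of the 10 genes at 136 and 151 TPM (1870 and 2491 counts). EpiSCs held 3, 0 and 3 counts of it, and its log2 fold change was 7.51 (SE 0.38, adjusted p = 7.92e-06), or 6.90 without EpiSC replicate 2. Piwil2, a PIWI protein that carries piRNAs, had 465 and 1012 counts (11.1 and 20.2 TPM) against 3, 1 and 5 counts, a log2 fold change of 5.34 (SE 0.50, adjusted p = 0.000103), or 6.02 without EpiSC replicate 3. Mael, a protein of the germ granule, had 102 and 143 counts (8.77 and 10.2 TPM) against 0 in every EpiSC library. That put Mael at least 6.05-fold higher in BV+SC+ cells (adjusted p = 0.000859), a lower limit set by the depth of the EpiSC libraries. Tdrd12 was thus far above Piwil2 and Mael in level, and each of the 3 had its BV+SC+ values above all its EpiSC values.

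The genes of the synaptonemal complex and chromosome axis differed in level among themselves. Hormad1, an axis protein, had 189 and 385 counts (18.1 and 30.3 TPM) against 0 in EpiSCs, at least 13.99-fold higher (adjusted p = 0.000445). Sycp3, of the lateral element, had 63.9 and 152 estimated counts (7.99 and 15.7 TPM) against 2, 0 and 0, a ratio of 27.8 with a 95% counting interval of 7.60 to 231 (adjusted p = 0.00275). That ratio was 17.8 without BV+SC+ replicate 2 and 18.0 without EpiSC replicate 2, and without EpiSC replicate 1 Sycp3 was at least 5.24-fold higher. Sycp1, of the transverse filament, had 77 and 161 counts (2.70 and 4.70 TPM) against 4, 9 and 6 counts (0.72, 1.68 and 1.36 TPM). Its log2 fold change of 1.65 (SE 0.49, adjusted p = 0.0210) was the smallest among Sycp1, Piwil2 and Tex19.1, the 3 genes with counts in every EpiSC library. Sycp1 is also the gene whose call rested on particular libraries. The adjusted p became 0.0867 without EpiSC replicate 1, 0.0660 without EpiSC replicate 3 and 0.0579 without BV+SC+ replicate 2, with log2 fold changes of 1.36, 1.70 and 1.17.

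Tex19.1 had 594 and 1893 counts (46.1 and 125 TPM) against 4, 3 and 6 counts in EpiSCs (1.52, 1.19 and 2.88 TPM), a log2 fold change of 5.55 (SE 0.56, adjusted p = 0.000141), or 4.65 without BV+SC+ replicate 2. Its level in BV+SC+ replicate 2 was 2.70 times that in replicate 1, the widest gap among the 10. Slc25a31, the mitochondrial carrier, had 17 and 51 counts (1.38 and 3.44 TPM) against 0 in all 3 EpiSC libraries. Slc25a31 was at least 1.64-fold higher, a limit that rested on BV+SC+ replicate 2 and fell to 0.915, which gives no direction, without it. At the depth of the shallowest EpiSC library, its BV+SC+ counts would come to 2.81 and 6.89, so that the first would itself fall at the floor. For the other 9 genes the same scaling left at least 10.6 counts in each BV+SC+ library (the lowest was Sycp3 in replicate 1) and up to 336 counts (Tdrd12 in replicate 2).

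**Figure D2:**
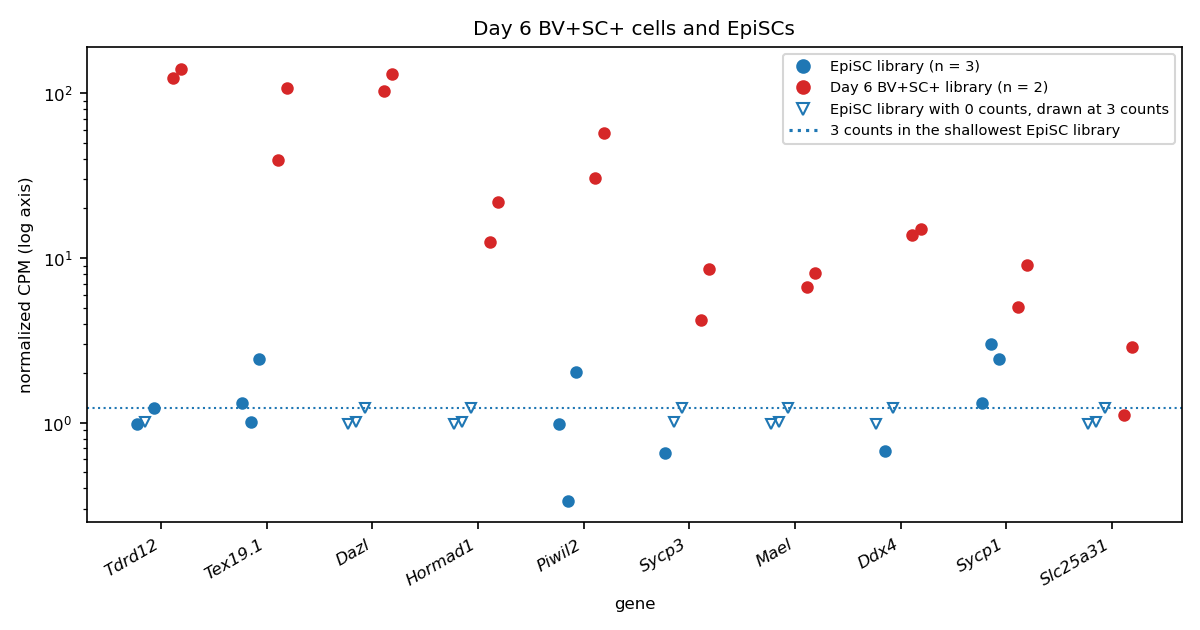
Normalized CPM on a log axis for each of the 10 genes (horizontal axis) in 3 EpiSC libraries (blue) and 2 Day 6 BV+SC+ libraries (red). Filled points are libraries, open triangles are EpiSC libraries with 0 counts drawn at the level of 3 counts, and the dotted line is 3 counts in the shallowest EpiSC library, which only BV+SC+ replicate 1 of Slc25a31 falls below among the red points.

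Per length, the order in BV+SC+ cells by mean TPM was Tdrd12, Tex19.1, Dazl, Hormad1, Piwil2, Sycp3, Mael, Ddx4, Sycp1 and Slc25a31. Tdrd12 lay above Tex19.1 in both libraries, Dazl above Hormad1, and Ddx4 above Sycp1, with no overlap between the 2 libraries of each neighbour. The ranges of the other neighbours in this order overlapped, whereas Hormad1, for example, lay above Sycp3, Mael and Ddx4 in both libraries, and Piwil2 above Mael and Ddx4. All 10 genes were higher in BV+SC+ replicate 2 than in replicate 1 in TPM, by 1.05 times for Ddx4 to 2.70 times for Tex19.1. Tex19.1 alone was past 2-fold on the scale of log2(TPM + 1), beside 5.44% of the 13574 genes above 1 TPM in either library, whose median log2 ratio was -0.03. Dnmt3l, a cofactor of de novo methylation, was at 36.6 TPM in replicate 1 and 108 TPM in replicate 2, and the summed TPM of the 5 primed epiblast markers was 30.4 and 148. The part of medium or of remaining primed cells in these differences was not tested.

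Reads of some of these genes can be shared with other annotated transcripts. All 3 transcripts of Sycp3 share up to 420 identical bases with Chpt1, a gene on the opposite strand that overlaps it, and Chpt1 had 248 and 360 estimated counts in BV+SC+ cells. Whether counting used the strand is not given in the sources used here, so the split between Sycp3 and Chpt1 is uncertain. Hormad1 shares 994 bases at 97.9% identity with the processed pseudogene Gm15529, which is not among the genes of the EpiSC and BV+SC+ files and had 0 counts in the 4 c-Kit libraries. Of the 4 Sycp1 transcripts, 1 holds a stretch of up to 123 bases that occurs at 95% identity or more in 64 other genes. The part of such repeats in the few Sycp1 counts seen in every library was not tested.

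In Day 3 cells sorted by c-Kit, the question was whether cells on the path to the germ cell-like state already read these genes. None of the 10 reached the filter on low counts in either group, so none was tested, whereas 9.98% of the 11018 genes tested were called higher in c-Kit+ cells and 12.9% lower. At the floor were 8 of the 10 in c-Kit- cells and 7 of the 10 in c-Kit+ cells, with 6 at the floor in both. Dazl, Mael, Slc25a31 and Hormad1 had 0 counts in all 4 libraries. Ddx4 had 2 counts in c-Kit+ replicate 2 and 0 elsewhere. Sycp3 had 1 count in c-Kit- replicate 1 and 1 in c-Kit+ replicate 1. These 6 genes had no level in either group that could be told from the floor.

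The remaining 4 genes gave a few counts each. Tdrd12 had 6 and 2 counts in c-Kit+ cells (4.59 and 2.31 TPM) and 0 in both c-Kit- libraries, at least 1.40-fold higher. That limit rested on c-Kit+ replicate 1, and without it the value was 0.667, which gives no direction. Tdrd12 was the only gene of the 10 without overlap between the groups in normalized CPM, a pattern seen in this direction in 29.3% of the 18880 genes with any count and in the other in 26.0%. Fitted with no filter on low counts, where 6 of the 10 entered, Tdrd12 had an unadjusted p of 0.0270 and an adjusted p of 0.0924 by edgeR's quasi-likelihood test, and no other gene of the 10 had an unadjusted p under 0.05. Tex19.1 had 10 and 3 counts in c-Kit- cells and 3 and 2 in c-Kit+ cells. Sycp1 had 3 and 4 counts against 6 and 2, and Piwil2 1 and 0 against 0 and 4. The groups overlapped for all 3. DESeq2, run on the genes that passed the filter, tested none of the 10 either.

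The c-Kit libraries were the shallowest. At the depth of the shallowest of them, the BV+SC+ counts of Dazl would come to 184 and 219 and those of Tdrd12 to 218 and 238, far from the 0 to 6 counts seen, while those of Slc25a31 would come to 1.99 and 4.86, which a floor of 3 counts could not resolve. The 2 experiments differ in library preparation and gene list and were normalized apart, so these figures are set side by side and were not tested. Early germ cell markers moved in the same cells: 6 of 7 tested were called higher in c-Kit+ cells, beside 9.98% of all genes tested. Kit, the antigen used for the sort, is among them and is a check of the labels only. Nanos3, an RNA-binding protein of early germ cells, had 0 TPM in both c-Kit- libraries and 76.1 and 62.0 TPM in c-Kit+ cells. Prdm1, which encodes Blimp1, rose by a log2 fold change of 4.77 (SE 0.49, adjusted p = 7.58e-05), from 3.95 to 6.62 with either c-Kit- library left out. Of the primed epiblast markers 2 of 4 tested, Sox3 and Otx2, were called higher in c-Kit+ cells too and 1, Pou3f1, lower, with a summed TPM over the 5 of 46.3 and 51.1 in c-Kit- cells and 183 and 192 in c-Kit+ cells. Of the 7 tested trophoblast markers, 6 were called lower in c-Kit+ cells. The other 1, Cdx2, was called higher, from 26.45 and 14.36 TPM to 51.46 and 55.66 TPM. Of the fibroblast markers 3 of 3 tested were lower in c-Kit+ cells. The summed TPM of the 8 trophoblast markers was 6444 and 5952 in c-Kit- cells and 1559 and 1356 in c-Kit+ cells. That of the 5 fibroblast markers was 161 and 135 against 55.5 and 44.0, with Dcn at 0 in 3 of the 4 libraries. In such bulk samples fewer cells of a type and less RNA per cell cannot be told apart.

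With and without SGC0946 at Day 3, a pair that bears on the DOT1L inhibitor of stage 1, most of the 10 genes were at the floor again. That was so for 7 of 10 without and 6 of 10 with the inhibitor, and Mael, Slc25a31 and Hormad1 had 0 counts in both libraries. There was 1 library for each condition, so the values have no replicate check and no test. Dazl had 0 counts without and 1 with SGC0946, and Ddx4 1 and 3. Piwil2 had 4 counts without SGC0946 (0.34 TPM) and 5 with it (0.40 TPM). Sycp1 had 11 counts without it (exact Poisson 95% interval 5.49 to 19.7) and 12 with it (6.20 to 20.96). Tdrd12 had 9 (4.12 to 17.1) and 12 (6.20 to 20.96). For both genes the intervals, which cover counting error only, overlapped widely.

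Tex19.1 had 3 counts without SGC0946 (0.619 to 8.77) and 9 with it (4.12 to 17.1), and these intervals overlapped too. In TPM it went from 0.78 to 3.89, a log2 ratio of 1.46 on TPM + 1, which made it the only gene past 2-fold among the 3 of the 10 that were above 1 TPM in either library. Of all 14038 genes above that level, 6.33% were past 2-fold higher with SGC0946 and 3.45% lower. The effective length given for Tex19.1 was 1534 bases without and 869 bases with SGC0946, and on CPM + 1 its log2 ratio was 0.78, which is not past 2-fold. In the same pair Nanos3 was at 1.54 TPM without and 24.7 with SGC0946, and Dppa3 at 2.49 and 12.7, and 6 of 8 early germ cell markers above 1 TPM were past 2-fold higher. Scaled to the library without SGC0946, the BV+SC+ counts of Dazl would come to 487 and 582. Those of Slc25a31, the rarest of the 10, would come to 5.27 and 12.9, above the floor of 3 counts. These are expected values, and an actual count around 5.27 could still fall at the floor.

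**Figure D3:**
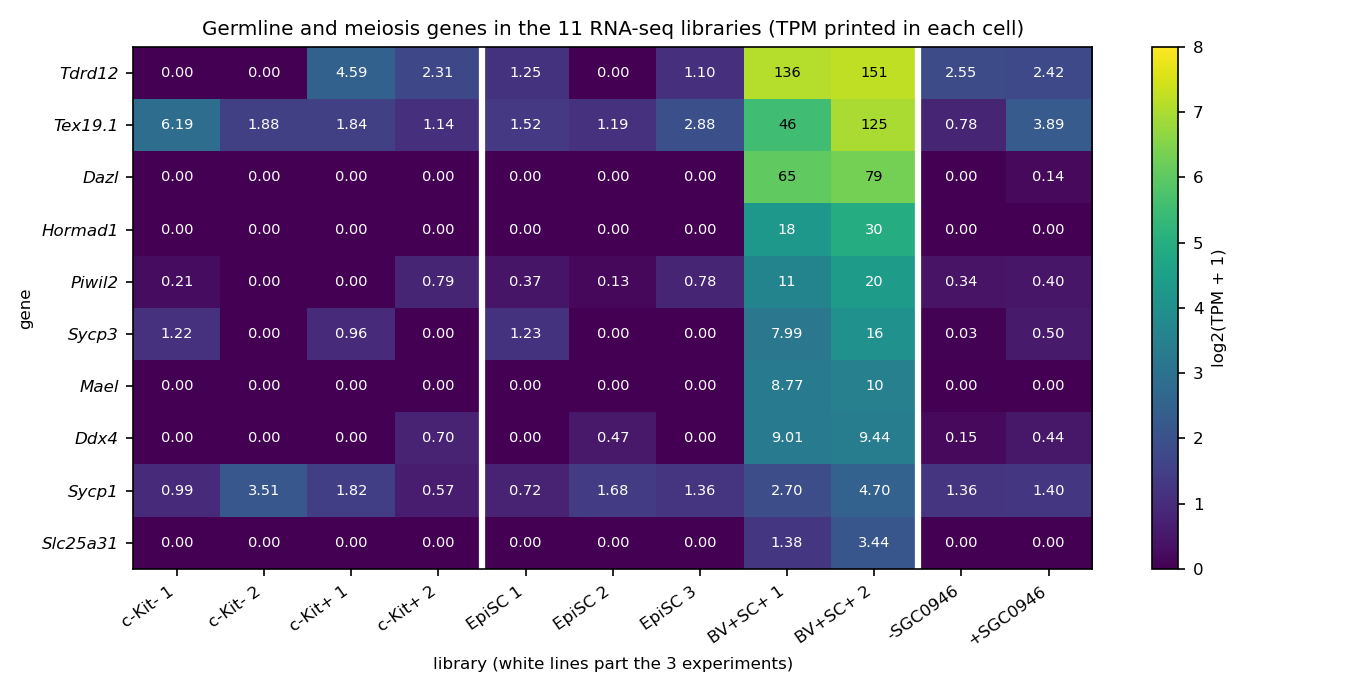
TPM of the 10 genes (rows, by mean TPM in BV+SC+ cells) in the 11 libraries (columns), coloured by log2(TPM + 1) and printed in each cell, with white lines between the 3 experiments. The 2 BV+SC+ columns are above 0 in every row, and outside them no value exceeds the 6.19 TPM of Tex19.1 in c-Kit- replicate 1.

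The 4 lists of other germline genes, with 53 genes in all, of which 51 are in the EpiSC and BV+SC+ files, placed the 10 in their pathways. In BV+SC+ cells against EpiSCs 25 of the 51 were called higher and 0 lower, 3 were tested without a call and 23 did not pass the filter. The genes that passed had a median log2 fold change of 7.32, or of 3.36 with genes at 0 in EpiSCs set at their lower limit, beside 0.05 over all 11792 genes tested. As above, most of them passed the filter through the BV+SC+ libraries. In EpiSCs 30 of the 51 had 0 counts in all libraries, against 2 of 51 in BV+SC+ cells. The BV+SC+ libraries were deeper, so more low genes could reach a count in them. Of all 29267 genes listed, 14163 to 14603 had counts in each EpiSC library, and 17650 and 17825 in the BV+SC+ libraries. The part of depth in the genes at 0 was not tested for these lists. The summed TPM of the 51 genes was 73.5 to 97.7 in EpiSCs and 453 and 693 in BV+SC+ cells.

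Among 10 other genes of the synaptonemal complex and chromosome axis, 6 were called higher in BV+SC+ cells. Smc1b, the meiotic cohesin subunit, was at 9.57 and 21.4 TPM against 0 in EpiSCs, at least 28.9-fold higher, and Hormad2, the partner of Hormad1 on the axis, at 18.8 and 29.2 TPM, at least 9.76-fold higher. Without BV+SC+ replicate 2 these limits were 17.5-fold and 6.24-fold. Of 16 genes of the piRNA pathway and Tudor family, 6 were called higher. They included Fkbp6 (36.9 and 27.8 TPM against 0, at least 18.1-fold) and Pld6 (16.9 and 12.7 TPM against 0, at least 7.64-fold), both needed for piRNA production. Of 15 genes of meiotic entry and recombination, 7 were called higher, with Rec114, which acts in meiotic break formation, at 22.9 and 69.1 TPM and Dmc1, the meiotic recombinase, at 6.03 and 7.79 TPM, both at 0 in EpiSCs. Their lower limits were 14.2-fold and 6.59-fold, and that of Rec114 was 6.56-fold without BV+SC+ replicate 2 and 21.9-fold without replicate 1. Of 10 further genes with promoters methylated in somatic cells, 6 were called higher, led by Tex14, of the intercellular bridge, at 27.8 and 35.8 TPM (at least 57.1-fold) and Tex15 at 8.49 and 12.3 TPM (at least 24.7-fold). The tested genes without a call, named after their values were seen, were Tdrd7, Tdrkh and Ythdc2, with log2 fold changes of 0.42, -0.81 and 0.05.

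In c-Kit+ against c-Kit- cells 6 of the 53 passed the filter, of which 2 were called higher and 2 lower. Syce2, of the central element of the synaptonemal complex, rose from 14.4 and 24.0 TPM to 120 and 89.4 TPM (log2 fold change 2.66, SE 0.34, adjusted p = 0.000301). Tdrd5, a Tudor protein of the piRNA pathway, rose from 2.3 and 4.0 TPM to 19.2 and 21.2 TPM (log2 fold change 2.85, SE 0.34, adjusted p = 0.000194). Both were also higher in BV+SC+ cells than in EpiSCs, with log2 fold changes of 2.29 (SE 0.21) and 5.44 (SE 0.42, or 6.17 without EpiSC replicate 3). With and without SGC0946, Tdrd5 had 76 counts (59.9 to 95.1) and 27 counts (17.8 to 39.3), whose intervals did not overlap, yet its log2 ratio on TPM + 1 was 0.81, short of 2-fold, against 1.26 on CPM + 1. Lower in c-Kit+ cells were Tdrd7 (26.5 and 18.4 TPM to 3.27 and 2.12 TPM, log2 fold change -3.23, SE 0.34) and Prdm9, the methyltransferase that places recombination sites (8.31 and 8.04 TPM to 0.30 and 1.40 TPM, log2 fold change -2.35, SE 0.66). Prdm9 was not called by DESeq2 (adjusted p = 0.0875), without c-Kit- replicate 2 (0.0937) or without c-Kit+ replicate 1 (0.152), and its log2 fold change was -3.82 without c-Kit+ replicate 2. Beside these changes stood the shifts in primed epiblast, trophoblast and fibroblast markers given above, whose part was not tested, and Syce2 was at 37.0 to 45.4 TPM in EpiSCs. With SGC0946 against without, 1 of the 16 listed genes above 1 TPM was past 2-fold higher and 3 were lower, each of the latter with no more than 3 counts in either library. The gene that was higher, Stag3, had 9 counts without and 16 with SGC0946, with overlapping intervals. Its log2 ratio was 1.03 on TPM + 1 but 0.53 on CPM + 1, which is not past 2-fold.

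**Figure D4:**
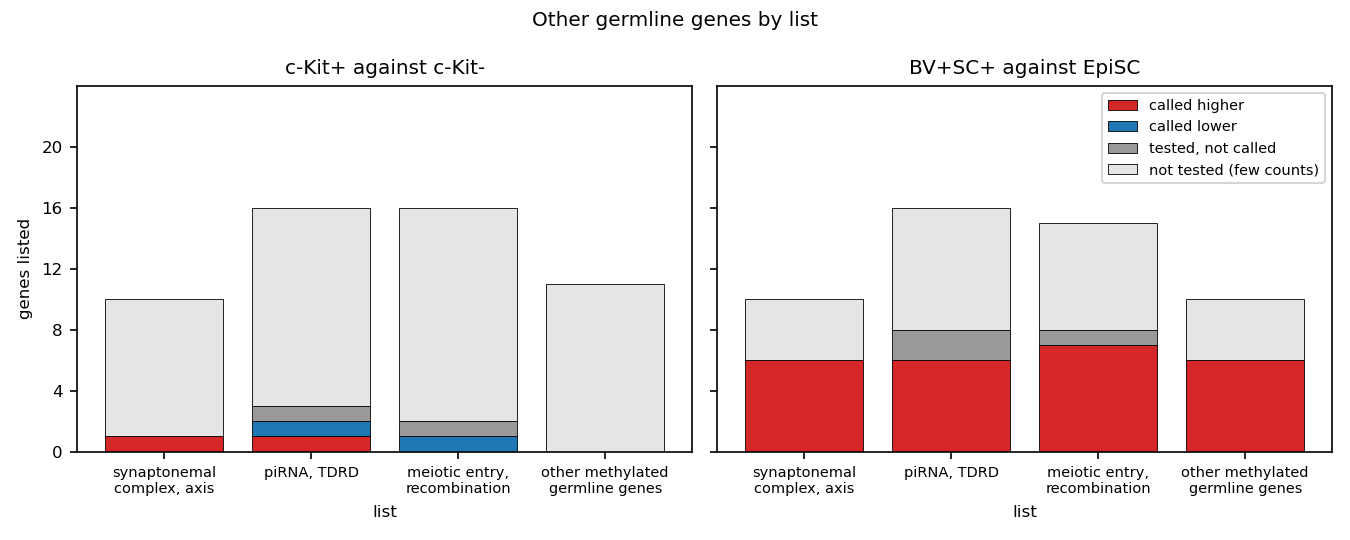
Number of genes in each of the 4 germline lists (bars) that were called higher, called lower, tested without a call or not tested for few counts, in Day 3 c-Kit+ against c-Kit- cells (left) and Day 6 BV+SC+ cells against EpiSCs (right). In the right panel 25 of 51 genes are called higher, and in the left panel 2 of 53.

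Markers of spermatids were at or near 0. The spermatid genes Prm1, Prm2 and Acrv1 were at 0 in all 11 libraries, and Tnp1 had 1 count in BV+SC+ replicate 2. The summed TPM of the 7 testis somatic and spermatid markers was 1.49 and 1.10 in BV+SC+ cells and 2.26 to 4.26 in EpiSCs, 6.34 to 11.3 in the c-Kit libraries, and 34.95 without and 30.25 with SGC0946, most of it Sox9 (31.1 and 26.8 TPM in that pair). In BV+SC+ cells 4 of the 5 tested trophoblast markers were called higher than in EpiSCs, with a summed TPM of 207 and 74.7 against 42.3 to 66.6, and the call of Krt8 and of Krt18 was lost without BV+SC+ replicate 1 (adjusted p = 0.186 and 0.161). The part of such cells in the germline values was not tested. The 5 fibroblast markers summed to 2.83 and 4.76 TPM against 23.1 to 37.7 in EpiSCs, and none of the 5 endoderm markers passed the filter. Naive pluripotency markers were called higher in 7 of 8 tested genes, among them Tbx3 at only 3.18 and 2.37 TPM. The other 1, Klf4, had a log2 fold change of -1.32 without a call, or 0.45 without EpiSC replicate 1. Primed markers were called lower in 3 of 5. Lef1, which was not called, had a log2 fold change of 0.69, or -0.58 without BV+SC+ replicate 2.

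The enzymes that write and remove DNA methylation also differed between BV+SC+ cells and EpiSCs, with 3 of 9 genes called higher and 5 lower. Dnmt3b, a de novo methyltransferase, stood at 679, 731 and 710 TPM in EpiSCs and at 17.6 and 41.9 TPM in BV+SC+ cells, a log2 fold change of -4.48 (SE 0.35, adjusted p = 4.65e-05), or -5.23 without BV+SC+ replicate 2. Dnmt3a, the other de novo enzyme, changed by -1.60 (SE 0.16) and Uhrf1, which brings the maintenance enzyme to replicated DNA, by -1.30 (SE 0.11). Dnmt1, the maintenance enzyme itself, was at 123 to 131 TPM in EpiSCs and 199 and 212 TPM in BV+SC+ cells, a log2 fold change of 0.76 (SE 0.09) that passed the adjusted p (0.00034) but not 2-fold. Dnmt3l, at 0 in EpiSCs, was at least 50.5-fold higher in BV+SC+ cells, or 25.1-fold without BV+SC+ replicate 2 and 76.0-fold without replicate 1. Of the oxidizing enzymes, Tet1 rose by 1.15 (SE 0.11) and Tet2 by 3.34 (SE 0.21) on the log2 scale, and Tet3 fell by 3.61 (SE 0.40), with a value of -4.47 without BV+SC+ replicate 1. Tet1 was short of 2-fold by limma-trend on log2(TPM + 1), at 0.72 (adjusted p = 0.0199). Tdg, the glycosylase that removes oxidized bases, fell by 1.08 (SE 0.12), and by 0.95 without BV+SC+ replicate 1, which is short of 2-fold. The median log2 fold change of the 9 was -1.08, beside 0.05 over all genes tested.

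In c-Kit+ against c-Kit- cells 8 of these 9 genes were tested, and 1 was called higher and 2 lower. Tet1 rose from 3.92 and 8.5 TPM to 28.1 and 24.1 TPM (log2 fold change 3.00, SE 0.20, adjusted p = 7.5e-06). Dnmt3a fell by 1.17 (SE 0.19) and Tet3 by 1.21 (SE 0.23), both just past 2-fold: without c-Kit+ replicate 1 Dnmt3a was at -0.998 (adjusted p = 0.00453), and without c-Kit- replicate 1 Tet3 was at -0.96 (adjusted p = 0.000634), which are not called. Dnmt1 and Uhrf1 passed the adjusted p without reaching 2-fold, at -0.55 (SE 0.08) and 0.46 (SE 0.10), while the values of Dnmt3b, Tet2 and Tdg were 0.09, 0.11 and 0.17. Dnmt3b was thus at 43.1 to 49.8 TPM in all 4 Day 3 libraries of this experiment. With SGC0946, Dnmt3l had 15 counts against 0 without it, at 3.85 TPM, and the other 8 genes were within 2-fold.

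PRC1.6 genes were read in all groups. In BV+SC+ cells against EpiSCs 1 of 14 was called higher and 1 lower. Max, the partner of Mga, rose by 1.21 (SE 0.20, adjusted p = 0.00157), and Yaf2 fell by 2.36 (SE 0.29, adjusted p = 0.000369) on the log2 scale. Mga, Pcgf6 and L3mbtl2 had values of 0.93 (SE 0.11), 0.64 (SE 0.14) and 0.44 (SE 0.14), below 2-fold, and E2f6 -0.33 (SE 0.22, adjusted p = 0.231). E2f6 was at 39.2 to 49.7 TPM in EpiSCs and at 40.4 and 25.4 TPM in BV+SC+ cells. In c-Kit+ against c-Kit- cells Pcgf6 alone of the 14 was called, at 1.06 (SE 0.20, adjusted p = 0.00277), and it fell short of 2-fold without c-Kit- replicate 1 (0.87) or without c-Kit+ replicate 1 (0.98). With against without SGC0946 all 14 were within 2-fold. Of 7 genes of H3K9 methylation, Atf7ip was called higher in BV+SC+ cells (1.01, SE 0.11) and Trim28 in c-Kit+ cells (1.12, SE 0.07), and none was called lower in either comparison. Atf7ip lay at the 2-fold threshold and was at 0.95 without BV+SC+ replicate 2, just under it without EpiSC replicate 2 (0.996), and at -0.30 by limma-trend on log2(TPM + 1).

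**Figure D5:**
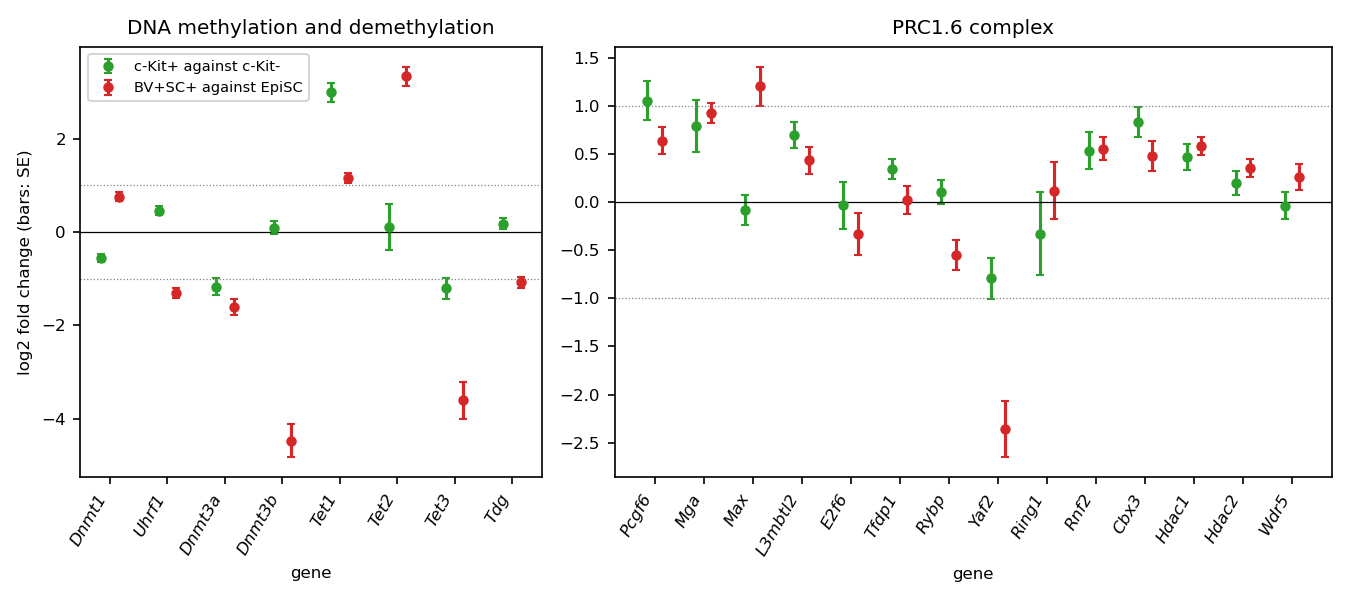
Log2 fold changes with standard errors (vertical axis) for genes of DNA methylation (left, without Dnmt3l, which is at 0 in EpiSCs) and of PRC1.6 (right), in c-Kit+ against c-Kit- cells (green) and in BV+SC+ cells against EpiSCs (red), with dotted lines at 2-fold. Dnmt3b at -4.48 is the lowest and Tet2 at 3.34 the highest value on the left, and Yaf2 at -2.36 the lowest on the right.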

How the data were processed

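RNA-seq of 11 libraries was analysed; samples of other assays were left out. The authors deposited RSEM output, from which expected counts and TPM per gene were used. The submitters' processing notes name RSEM 1.3.1, Bowtie2 and mm10; the paper's methods name the GENCODE transcriptome, Bowtie2 and another RSEM version. Per the labels, the EpiSC, BV+SC+ and SGC0946 libraries were made from ribosome-depleted total RNA, and the c-Kit libraries are described as mRNA.

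The 10 genes and all lists were chosen with earlier results of these data known. Expected counts were rounded and tested within each of the 2 replicated experiments with edgeR 4.0.16 (quasi-likelihood, TMM factors, filterByExpr) in R 4.3.3, with Benjamini-Hochberg adjustment over all genes tested; a call needed an adjusted p under 0.05 and a fold over 2. Standard errors (SE) were derived from the test, as the absolute log2 fold change over the square root of its F statistic. The fit was also run on simulated counts in which only genes well above the floor were changed, so that run does not bear on genes near the floor. Normalized CPM are rounded counts over TMM-scaled library sizes. The SGC0946 pair was compared as log2 ratios of the deposited TPM + 1 for genes above 1 TPM in either library. Named genes were the 10, all DNA methylation genes, Pcgf6, Mga, Max, L3mbtl2, E2f6, Kit, Prdm1, Dppa3 and Dot1l. Per list and comparison, up to 2 called genes with the largest rise and 2 with the largest fall at a mean of at least 1 TPM were added. Tdrkh, Ythdc2, Stag3, Chpt1, Gm15529, Dcn, Sox9, Krt8, Krt18, Klf4, Tbx3, Lef1 and the spermatid genes were chosen after their values were seen. Replicates are not stated to be separate cultures, so p-values measure the spread between these libraries, which may be technical. For the 2 BV+SC+ libraries, whose labels differ in medium, that spread also includes any effect of medium. No 2 libraries agreed within sampling noise. Alternatives were RLE factors, DESeq2 1.42.0, other filters, a replicate block, unadjusted p, limma-trend (limma 3.58.1) on log2(TPM + 1) and leaving out each library, and for the pair another pseudocount, CPM and no filter. Transcripts were compared by BLAST at 95% identity over at least 75 bases.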

Additional observations from a re-analysis of the deposited data

How the results depend on the processing

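In BV+SC+ cells against EpiSCs, 8 to 10 of the 10 genes were called when each library was left out in turn, and 9 or 10 under every other alternative run (RLE factors, DESeq2, other filters, a replicate block, unadjusted p and limma-trend). Slc25a31 entered the fit and was called with no filter, with at least 10 counts in every library of a group and when any 1 of the 3 EpiSC replicates was left out. Sycp1 lost its call without EpiSC replicate 1 or 3 or without BV+SC+ replicate 2; its adjusted p ranged from 0.00113 to 0.0867 over its alternatives, and the cause was not tested. No fitted fold change of the 9 genes tested turned its direction under these alternatives. Lower limits and count ratios with each library left out were added after seeing the data. In c-Kit+ against c-Kit- cells the filter on low counts left all 10 out of the main fit and most alternatives, which therefore could call none. With no filter 6 of the 10 entered the fit and 0 were called. Without c-Kit- replicate 2 or without c-Kit+ replicate 1, 1 of the 10 entered, again without a call. The gene past 2-fold with SGC0946, Tex19.1, was past it with a pseudocount of 0.1 TPM (log2 ratio 2.18), while on CPM with TMM factors the count was 0 (0.78).

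Replicate numbers shared by the labels are not stated to pair libraries. Same-numbered libraries had correlations of their deviations of 0.115 in the c-Kit experiment, and of -0.0337 and 0.0107 in the other. With the replicate block 9 of the 10 were called in BV+SC+ cells against EpiSCs, as without it. In the c-Kit experiment none of the 10 passed the filter in either fit, so none could be called.

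Depth limits the reading of 0 counts in the c-Kit and EpiSC libraries, most of all for Slc25a31. Library preparation, depth and medium differ between experiments or replicates, and no test was made across experiments.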
